A study of Mus musculus with 7 samples.

Results

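Complement components are described here in tumors grown from NM1 KO cells and from KO + NM1 cells. The members are the 9 genes C1qa, C1qb, C1qc, C1ra, C1s1, C2, C3, C4b and Cfb, found by their GENCODE M21 symbols among the 46603 Ensembl genes of each count file. All 9 were matched and passed the filter on low counts. The injected KO cells were MEFs, fibroblasts from mouse embryos, that had lost NM1, the nuclear isoform of the Myo1c gene, through CRISPR/Cas9. KO + NM1 cells are the same NM1 KO cells carrying a lentiviral NM1 coding sequence with HA and V5 tags, selected with neomycin and tested as single clones, so both groups share the deletion and differ in the transgene. Cells were injected into female Balb/c nude mice of 16 weeks, which were followed for up to 30 days by the labels, a longer time than the methods give. One tumor of each kind was cut into pieces according to the labels, while the methods speak of tumors, so the 3 KO and 4 KO + NM1 libraries are pieces, and their spread may hold no difference between animals. All tests below carry this limit.

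Complement is a cascade of plasma and tissue proteins that tags and lyses targets. In its classical pathway C1q, built from the chains of C1qa, C1qb and C1qc, recognizes antibody and other ligands and carries the proteases C1r and C1s, which cleave C4 and C2 to form a C3 convertase. In the alternative pathway factor B, the product of Cfb, joins C3b with the help of factor D. Most plasma complement comes from the liver, but tissue macrophages are the best known source of C1q, and fibroblasts, adipocytes and other stromal cells make C1r, C1s, C3 and C4.

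The count total of a piece was 24088309 to 28326568, and levels are given as CPM, counts scaled to a common library size by the TMM method. The smallest count of any of the 9 genes in any piece was 65. The KO pieces held transcripts of skeletal muscle, with 657 to 8006 CPM of Myh4 against 0 to 0.0814 CPM in the KO + NM1 pieces. The KO + NM1 pieces held those of white adipocytes, with 1985 to 14040 CPM of Fabp4 against 20.0 to 68.7 CPM in the KO pieces. KO + NM1 piece 01 stood apart from the others, with a correlation of log2 CPM across genes of 0.855 to 0.861 to pieces 02 to 04, against 0.977 to 0.986 among those. B cell transcripts were highest there, with 1287 CPM of Cd79a against 1.03 to 12.3 CPM in the other 6 pieces. In these bulk samples fewer cells of a type and less RNA per cell cannot be told apart. Myo1c, the targeted gene, had a log2 fold change (with its standard error, SE) of -0.43 (SE 0.13, edgeR adjusted p = 0.031), and its counts do not separate NM1 from the other isoforms.

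The 3 C1q genes lie on the minus strand of chromosome 4 within 18.675 kb (GRCm38, chr4:136880129-136898803). C1ra and C1s1 lie on chromosome 6 within 29.955 kb, on opposite strands (chr6:124512405-124542359). C4b, Cfb and C2 share a stretch of chromosome 17 (chr17:34728380-34898265) in the major histocompatibility region, and C3 lies elsewhere on chromosome 17 (chr17:57203970-57228136). The sequences before the start sites of C1qb, C1qc, C1ra and C1s1 are shown because the C1q genes and the protease genes moved in opposite directions in the tumors. They are the 250 bases before the start from RefSeq on GRCm38.p6, read 5′ to 3′ on the strand of the gene, with matches to the motifs named below in capitals. RefSeq windows were found for 5 of the 9 genes, C1qb, C1qc, C1ra, C1s1 and C3, and not for C1qa. In GENCODE M21, C1ra begins at chr6:124512405 and C1qc at chr4:136893065, each inside its window. The windows of C1ra and C1qc thus hold bases of the annotated genes themselves.

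C1qb, chr4:136886201-136886450, minus strand: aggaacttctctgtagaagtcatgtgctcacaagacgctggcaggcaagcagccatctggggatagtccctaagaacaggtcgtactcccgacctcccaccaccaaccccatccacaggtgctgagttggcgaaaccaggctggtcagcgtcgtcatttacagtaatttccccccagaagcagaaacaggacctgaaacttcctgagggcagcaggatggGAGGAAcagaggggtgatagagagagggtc
C1qc, chr4:136892915-136893164, minus strand: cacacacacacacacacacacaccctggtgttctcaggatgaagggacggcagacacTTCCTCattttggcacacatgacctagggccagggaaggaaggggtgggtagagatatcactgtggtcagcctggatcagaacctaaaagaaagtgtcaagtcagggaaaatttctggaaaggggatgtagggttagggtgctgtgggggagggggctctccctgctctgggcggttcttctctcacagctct
C1ra, chr6:124512371-124512620, plus strand: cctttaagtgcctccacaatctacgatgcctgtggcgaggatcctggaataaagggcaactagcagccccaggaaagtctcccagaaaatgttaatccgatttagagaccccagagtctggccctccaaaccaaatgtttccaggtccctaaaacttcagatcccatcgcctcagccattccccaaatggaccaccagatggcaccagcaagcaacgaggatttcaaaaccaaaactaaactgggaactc
C1s1, chr6:124542360-124542609, minus strand: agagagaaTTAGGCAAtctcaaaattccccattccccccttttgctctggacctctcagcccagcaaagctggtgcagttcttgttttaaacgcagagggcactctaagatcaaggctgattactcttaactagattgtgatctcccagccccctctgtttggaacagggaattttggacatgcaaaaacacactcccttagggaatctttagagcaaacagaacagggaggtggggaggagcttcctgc

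Among the motifs searched on both strands were GAGGAA, the core bound by PU.1 of macrophages, GAAA and GAAA separated by NN, the core of the interferon-stimulated response element, GGG and TTTCC separated by NN for NF-kB, and TTNNGCAA for C/EBP. The PU.1 core was found in C1qb, starting 30 bases before the start site on the strand of the gene, and in C1qc, starting 193 bases before it on the opposite strand. It was found in neither the C1ra nor the C1s1 window, but the C1ra and C1qc windows lie partly inside the annotated genes. The same core occurs in 23.3% of the 32817 windows of this length. The C1s1 window held a C/EBP match 242 bases before the start, a motif found in 9.57% of all windows. The window of a second RefSeq start of C1s1 (chr6:124542322-124542571), which also overlaps the annotated gene, held none of these motifs. The C3 window (chr17:57228137-57228386) held 1 C/EBP match, 45 bases before the start. The interferon-stimulated response element core and the NF-kB motif, found in 2.97% and 1.41% of all windows, were not found in any of these 6 windows. A match describes letters and not a bound site.

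Of the 9 genes, 3 rose and 2 fell in KO by the thresholds of the study, 0.05 on the adjusted p together with 2-fold. Among all 16887 genes tested, 17.1% rose and 20.3% fell by this rule, or 37.3% in either direction. By the adjusted p alone 3 of the 9 genes were higher and 3 lower, beside 25.7% and 24.5% of all genes tested, or 50.2% in either direction. The genes that rose were C1qa, C1qb and C1qc, and those that fell were C1ra and C1s1. C2, C3, C4b and Cfb did not pass both thresholds. The median log2 fold change of the 9 genes was -0.24, and that of all genes tested was -0.00172. Without KO + NM1 piece 01, 4 rose and 2 fell, and the gene gained was Cfb. In that setting 21.7% of all genes tested rose and 25.1% fell.

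**Figure D1:**
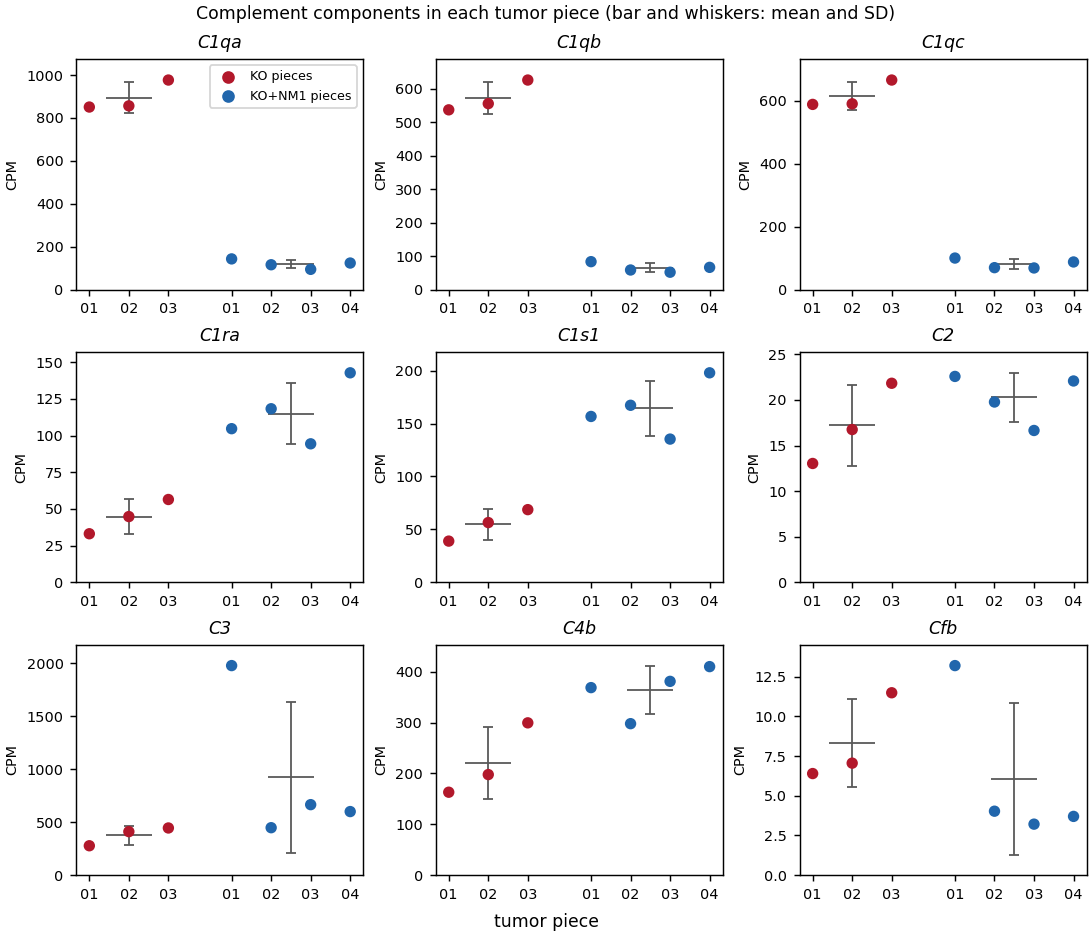
CPM (vertical axis, from 0) of each of the 9 complement genes in each tumor piece (horizontal axis), with KO pieces in red, KO + NM1 pieces in blue, and the mean and SD of each group in gray. The C1q genes sit between 537 and 977 CPM in the KO pieces and between 51.8 and 143 CPM in the KO + NM1 pieces, while C1ra and C1s1 lie lower in every KO piece and C3 and Cfb are set apart by KO + NM1 piece 01.

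C1qa, the gene of the A chain of C1q, was counted at 851, 856 and 977 CPM in KO pieces 01 to 03 and at 143, 116, 94.2 and 124 CPM in KO + NM1 pieces 01 to 04. The lowest KO piece was well above the highest KO + NM1 piece. The means were 895 ± 71.2 CPM (SD, n = 3) and 119 ± 20.1 CPM (SD, n = 4), a log2 fold change of 2.91 (SE 0.18, edgeR adjusted p = 0.000227), or 7.51-fold. C1qb, the gene of the B chain, had 537, 555 and 626 CPM in the KO pieces and 83.3, 58.4, 51.8 and 66.3 CPM in the KO + NM1 pieces. The groups again did not overlap, and the log2 fold change of 3.14 (SE 0.19, edgeR adjusted p = 0.000225) was the largest of the 9 genes, at 8.81-fold. C1qc, the gene of the C chain, had 589, 590.4 and 666 CPM in the KO pieces and 100.1, 69.6, 68.6 and 87.7 CPM in the KO + NM1 pieces. Its log2 fold change was 2.92 (SE 0.18, edgeR adjusted p = 0.000227), or 7.54-fold. By p-value the 3 genes ranked 67, 71 and 76 among the 16887 genes tested, and by size of the rise they ranked 820, 913 and 915. All 3 kept the call in each of the 16 alternative settings tried, with log2 fold changes of 2.73 to 3.32.

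The ratios between the chains of C1q moved little beside their levels. Per kilobase of exon, C1qa was 1.61 to 1.66 times C1qb in the KO pieces and 1.79 to 2.07 times C1qb in the KO + NM1 pieces, so the ratio was slightly higher in every KO + NM1 piece. C1qa was 2.68 to 2.72 times C1qc in the KO pieces and 2.55 to 3.09 times C1qc in the KO + NM1 pieces, and here the groups overlapped. C1qb was 1.62 to 1.67 times C1qc in the KO pieces and 1.34 to 1.49 times C1qc in the KO + NM1 pieces, so 2 of the 3 ratios were apart between the groups. Ratios within a library do not depend on its scaling, and they were not tested. No stretch of 75 bases in the transcripts of these 3 genes occurs unchanged in the annotated transcripts of another gene. Stretches that match with a few differences were not searched for.

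C1ra and C1s1, the genes of the proteases that C1q carries, went the other way. C1ra had 33.1, 44.8 and 56.4 CPM in the KO pieces and 105, 118, 94.4 and 143 CPM in the KO + NM1 pieces. The highest KO piece was below the lowest KO + NM1 piece, with means of 44.8 ± 11.7 CPM (SD, n = 3) and 115 ± 20.9 CPM (SD, n = 4). The log2 fold change of C1ra was -1.36 (SE 0.22, edgeR adjusted p = 0.00322), 2.57-fold lower in the KO pieces. C1s1 had 38.9, 56.4 and 68.7 CPM in the KO pieces and 157, 167, 135 and 198 CPM in the KO + NM1 pieces. These groups did not overlap either, and the means were 54.7 ± 14.9 CPM (SD, n = 3) and 164 ± 26.1 CPM (SD, n = 4). The log2 fold change of C1s1 was -1.59 (SE 0.23, edgeR adjusted p = 0.0019), 3.00-fold lower in the KO pieces. Both genes kept the call in all 17 alternative settings fitted gene by gene. Tested against a 2-fold change with glmTreat of edgeR, C1s1 passed (edgeR adjusted p = 0.0266) and C1ra did not (edgeR adjusted p = 0.0907). Of the 75-base stretches of the C1ra transcripts, 42.4% are also found in C1rb or the gene Gm18840, and 13.0% of those of C1s1 are found in C1s2. Reads from such stretches cannot be placed with certainty. With the counts of these genes added to those of C1rb and C1s2, the log2 fold changes were -1.40 and -1.59, again called.

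The 2 proteases also kept a close ratio to each other. Per kilobase of exon, C1s1 was 1.12 to 1.20 times C1ra in the KO pieces and 1.32 to 1.43 times C1ra in the KO + NM1 pieces. The range within each group was narrow, and the groups did not overlap. C1q and its proteases were set far apart. Per kilobase of exon, C1qa was 65.7, 45.6 and 42.8 times C1s1 in KO pieces 01 to 03 and 2.75, 2.08, 2.10 and 1.88 times C1s1 in KO + NM1 pieces 01 to 04. The mean log2 ratio of C1qa to C1s1 was 5.66 ± 0.334 for KO (SD, n = 3) and 1.12 ± 0.234 for KO + NM1 (SD, n = 4), a difference of 4.53 on the log2 scale. The ratio of C1qa to C1ra was 49.6 to 73.7 in the KO pieces and 2.48 to 3.91 in the KO + NM1 pieces.

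**Figure D2:**
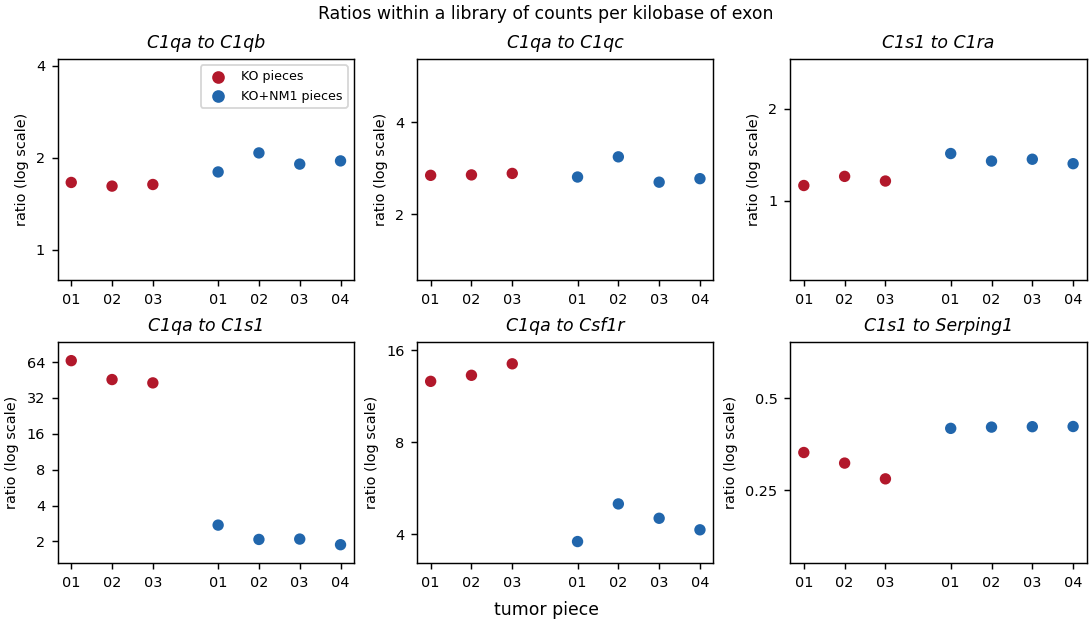
Ratios of counts per kilobase of exon between pairs of genes within each library (vertical axis, log scale), for each tumor piece (horizontal axis), with KO pieces in red and KO + NM1 pieces in blue. C1qa to C1qc stays between 2.55 and 3.09 in all 7 pieces and C1qa to C1qb between 1.61 and 2.07, while C1qa to C1s1 lies at 42.8 to 65.7 in the KO pieces and at 1.88 to 2.75 in the KO + NM1 pieces.

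C4b, the gene of C4, whose cleavage by C1s begins the classical convertase, had 163, 198 and 299 CPM in the KO pieces and 369, 298, 381 and 409.96 CPM in the KO + NM1 pieces. KO piece 03 reached the level of KO + NM1 piece 02, so the groups overlapped. The log2 fold change of C4b was -0.73 (SE 0.24, edgeR adjusted p = 0.0414), past the threshold on p but short of 2-fold. Without KO piece 03 it passed both, at -1.13 (edgeR adjusted p = 0.0149). Without KO piece 01 or 02, or KO + NM1 piece 03 or 04, it passed neither (edgeR adjusted p = 0.0766 to 0.0948). Of the 75-base stretches of C4b, 22.7% are shared with its paralog C4a. C4a had a log2 fold change of -0.58 (SE 0.25, edgeR adjusted p = 0.0915).

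C3, the central component on which all pathways converge, had 277, 410.2 and 445 CPM in the KO pieces and 1977, 447, 665 and 599.6 CPM in the KO + NM1 pieces. The highest KO piece was below the lowest KO + NM1 piece, but KO piece 03 and KO + NM1 piece 02 were nearly level, and KO + NM1 piece 01 was far above all others. The means were 377 ± 88.5 CPM (SD, n = 3) and 922 ± 709 CPM (SD, n = 4). The log2 fold change of -1.29 (SE 0.54, edgeR adjusted p = 0.0915) did not pass the threshold. Without KO + NM1 piece 01 it was -0.72 (edgeR adjusted p = 0.0248), past 0.05 but under 2-fold. KO + NM1 piece 01, the highest for C3, also held 561 CPM of Cr2, the receptor for C3 fragments on B cells and follicular dendritic cells, against 0.233 to 3.82 CPM in the other 6 pieces. The summed level of 8 B and plasma cell markers was 4984 CPM in that piece, 4.23 to 20.6 CPM in KO + NM1 pieces 02 to 04 and 30.4 to 65.5 CPM in the KO pieces. Their part in the C3 level of that piece was not tested.

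C2, the gene of the protease subunit of the classical convertase, had 13.0, 16.8 and 21.8 CPM in the KO pieces and 22.6, 19.8, 16.7 and 22.1 CPM in the KO + NM1 pieces. The groups overlapped, and the log2 fold change of -0.24 (SE 0.22, edgeR adjusted p = 0.414) did not pass the threshold in any setting. Cfb, the gene of factor B, had 6.40, 7.06 and 11.5 CPM in the KO pieces and 13.2, 4.03, 3.21 and 3.70 CPM in the KO + NM1 pieces. KO + NM1 piece 01 was the highest of all 7 and the other 3 the lowest. The log2 fold change of Cfb was 0.46 (SE 0.57, edgeR adjusted p = 0.526). Without KO + NM1 piece 01 it was 1.06 (edgeR adjusted p = 0.0108), past both thresholds, so the call on Cfb was decided by 1 piece. The annotation holds a readthrough gene, Gm20547, that joins these neighbors on the same strand and covers 42.8% of the exon bases of C2 and 79.5% of those of Cfb. Gm20547 was listed at 0 in all 7 pieces, and a read on an exon of 2 genes is not assigned by the default setting of HTSeq-count. The setting used is not given in the sources used here, and the levels of C2 and Cfb may therefore be low in all pieces.

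The exact permutation test on log2 CPM (two-sided, 35 splits, 9 genes tested) gave p = 0.0286, the smallest p that 3 against 4 pieces allow, for C1qa, C1qb, C1qc, C1ra and C1s1. It gave 0.0571 for C3 and C4b, 0.257 for C2 and 0.343 for Cfb. For 6 of the 9 genes the ranges of the groups were apart, 3 with KO higher and 3 with KO lower, beside 30.5% and 26.4% of all genes tested, or 57% in either direction.

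In order of CPM per kilobase of exon, the scale on which genes are compared, the KO pieces had C1qa first at 860.1 ± 68.4 (SD, n = 3), then C1qb at 526 ± 43.2 and C1qc at 318 ± 22.9. C3 at 73.4 ± 17.2, C4b at 38.6 ± 12.4, C1s1 at 17.5 ± 4.77 and C1ra at 15.0 ± 3.91 followed. Only C1s1 and C1ra were neighbors in this order closer than their SD. In the KO + NM1 pieces the order began with C3 at 179 ± 138 (SD, n = 4) and C1qa at 115 ± 19.4, which lay within the SD of C3. C4b at 64.0 ± 8.36, C1qb at 59.7 ± 12.5, C1s1 at 52.5 ± 8.33, C1qc at 42.2 ± 7.87 and C1ra at 38.6 ± 7.02 came next. From C4b to C1s1 and from C1qc to C1ra, neighbors in this order differed by less than their SD. C2 and Cfb were left out of this order because of the limit on their counts given above.

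Among the KO pieces, piece 03 was the highest and piece 01 the lowest for all 9 genes. The step was small for the C1q genes, whose highest KO piece was 1.13 to 1.17 times the lowest, and larger for the other 6, at 1.61 to 1.84 times. Among the KO + NM1 pieces, piece 01 was the highest for 6 genes and piece 04 for C1ra, C1s1 and C4b, and piece 03 was the lowest for 7. Mitochondrially encoded genes took 5.11% to 18.5% of the counts in the KO + NM1 pieces, with the highest share in piece 03, against 1.81% to 2.14% in the KO pieces. Leaving them out moved the median of all log2 fold changes by 0.000972. With library size as the only scaling that median rose by 0.179, and C1ra and C1s1 had log2 fold changes of -1.19 and -1.42, still called.

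Macrophage markers were followed with a list of 12 genes. Of the 12, 7 rose, 1 fell and 4 were not called, while 17.1% of all genes tested rose and 20.3% fell. The median log2 fold change of the 12 was 1.15, with a range of -1.77 to 4.49. Their summed level was 2027 to 2305 CPM in the KO pieces, 625 to 908 CPM in KO + NM1 pieces 02 to 04 and 2392 CPM in KO + NM1 piece 01, and none of the 12 was at 0. Lyz2 alone held 1898 CPM of the sum in KO + NM1 piece 01, against 886 to 1022 CPM in the KO pieces. Of the same markers 7 rose and 2 fell when KO + NM1 piece 01 was left out, beside 21.7% and 25.1% of all genes tested there. Those that fell there were Cd14, which also fell with all pieces, and Cd163, both named after their values were seen. The 2 most abundant were Lyz2, the lysozyme gene of macrophages and neutrophils, and Csf1r, the receptor gene for the macrophage growth factor CSF1. Lyz2 had 886 to 1022 CPM in the KO pieces and 1898, 269, 196 and 272 CPM in KO + NM1 pieces 01 to 04, a log2 fold change of 0.54 (SE 0.83, edgeR adjusted p = 0.613) that became 1.84 (edgeR adjusted p = 6.7e-05) with KO + NM1 piece 01 left out. Csf1r had 359 to 376 CPM in the KO pieces and 116 to 210 CPM in the KO + NM1 pieces, and its log2 fold change was 1.25 (SE 0.22, edgeR adjusted p = 0.00369). Per kilobase of exon C1qa was 12.6 to 14.4 times Csf1r in the KO pieces and 3.78 to 5.02 times Csf1r in the KO + NM1 pieces. The groups did not overlap, and the difference in mean log2 ratio was 1.63. The choice of Csf1r for this ratio was made after the values were seen. For other macrophage markers of the list the difference was 1.36 (Cd68), 0.0018 (Adgre1) and -1.23 (Fcgr1), so it depended on the marker. For Adgre1 it also rested on KO + NM1 piece 01, with a ratio of 24.4. The ratio to Adgre1 was 10.7 to 12.5 in KO + NM1 pieces 02 to 04 and 13.1 to 14.8 in the KO pieces. The part of macrophage content in the C1q levels was not tested.

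Genes known to be raised by interferon gamma were set beside the 9 because C2, C3, C4 and factor B genes are among the targets of this cytokine. Of 12 such genes 9 rose and none fell by the study thresholds, beside 17.1% and 20.3% of all genes tested. Their median log2 fold change was 2.23. In 10 of the 12 every KO piece was above every KO + NM1 piece, beside 30.5% of all genes tested. All 12 rose when KO + NM1 piece 01 was left out, beside 21.7% of all genes tested there. The largest rises were those of the chemokine genes Cxcl10, with a log2 fold change of 6.35 (SE 0.44, edgeR adjusted p = 0.000351), and Cxcl9, with 5.44 (SE 0.28, edgeR adjusted p = 0.00022). The summed level of the 12 genes was 3393 to 4248 CPM in the KO pieces. It was 378 to 1847 CPM in the KO + NM1 pieces, with piece 01 the highest of these. C2, C4b and C3 had negative log2 fold changes and Cfb a positive one, and none of these genes passed both thresholds. Without KO + NM1 piece 01 Cfb rose, at 1.06 (edgeR adjusted p = 0.0108). The others stayed negative there and short of 2-fold. C4b was at -0.85 (edgeR adjusted p = 0.017), C3 at -0.72 (edgeR adjusted p = 0.0248) and C2 at -0.31 (edgeR adjusted p = 0.234). The part of interferon gamma in the levels of the complement genes was not tested.

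**Figure D3:**
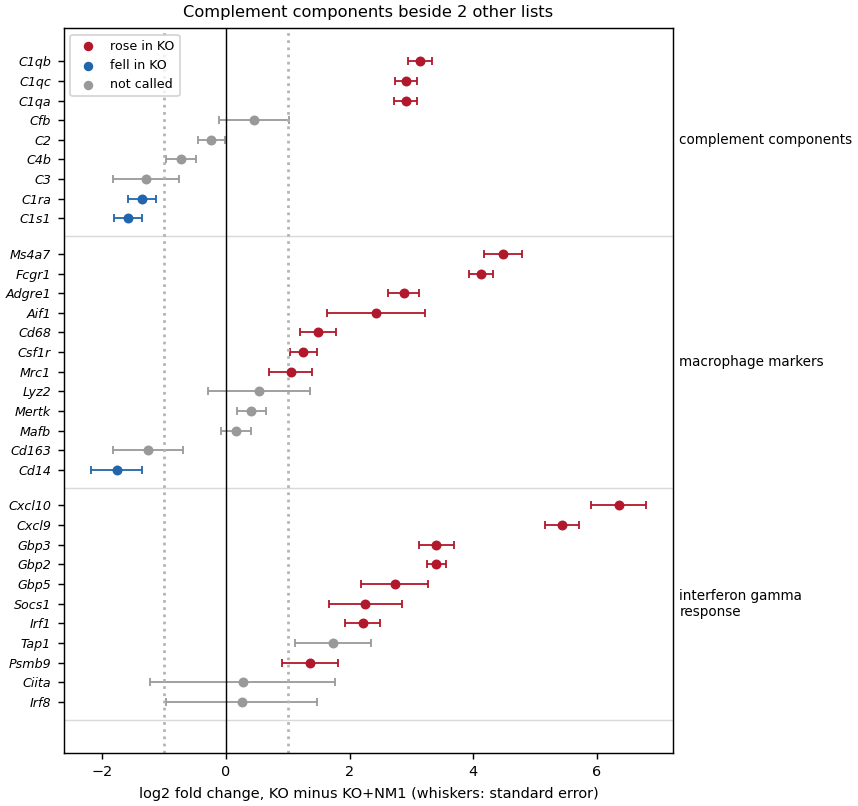
Log2 fold changes, KO minus KO + NM1 (horizontal axis), with standard errors, of the 9 complement genes, 12 macrophage markers and genes of the interferon gamma response (rows), with 1 of the last not shown. Red marks genes that rose, blue those that fell and gray those that were not called. The C1q genes at 2.91 to 3.14 lie within the range of the macrophage markers, -1.77 to 4.49.

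The wider pathway was followed with 43 further complement genes in 6 lists by role, of which 31 passed the filter on low counts. Among these 31, 2 rose and 17 fell, and the median log2 fold change was -1.52, beside 17.1% and 20.3% of all genes tested. Without KO + NM1 piece 01, 5 rose and 17 fell, beside 21.7% and 25.1% of all genes tested there. The 12 genes left out by the filter had 0 to 2 counts in each piece, except Cfi, the gene of factor I, named after its values were seen, with 76 counts in KO + NM1 piece 01 and 0 to 8 in the others.

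Of the other initiating genes 7 were tested, and 5 fell and none rose, beside 20.3% and 17.1% of all genes tested. C1rb and C1s2, the paralogs of C1ra and C1s1, fell with log2 fold changes of -1.63 (SE 0.27, edgeR adjusted p = 0.00316) and -1.65 (SE 0.33, edgeR adjusted p = 0.00666). Colec11, a collectin that recognizes sugars in the lectin pathway, had 1, 3 and 6 counts in the KO pieces and 55 to 128 counts in the KO + NM1 pieces, and fell by 5.10 on the log2 scale (SE 0.55, edgeR adjusted p = 0.000954). Masp2, the protease gene of the lectin pathway, fell by 2.10 on the log2 scale (edgeR adjusted p = 0.00656), at a mean of 0.392 CPM in the KO pieces and 1.70 CPM in the KO + NM1 pieces.

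Of the other genes of the C3 and C4 convertases, Cfd fell and the other two, C4a and Cfp, were not called. Cfd, the gene of factor D or adipsin, which is made by adipocytes and cleaves factor B, had 7.10, 77.6 and 18.7 CPM in KO pieces 01 to 03 and 944, 8713, 7420 and 6171 CPM in KO + NM1 pieces 01 to 04. Its log2 fold change was -7.40 (SE 0.95, edgeR adjusted p = 0.00378), larger in size than that of any of the 9 genes. The 10 white adipocyte markers all fell, beside 20.3% of all genes tested, with a median log2 fold change of -8.40. Their summed levels were 232 to 570 CPM in the KO pieces and 6011 to 45795 CPM in the KO + NM1 pieces. Their part in the level of Cfd was not tested.

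Of the terminal components, which build the membrane attack complex, 4 were tested. Of these 3 fell and none rose, beside 20.3% and 17.1% of all genes tested. The fourth, C6, named after its values were seen, had 8.49 to 10.7 CPM in the KO pieces and 10.9, 1.63, 1.83 and 2.38 CPM in KO + NM1 pieces 01 to 04. Its log2 fold change was 1.16 (SE 0.71, edgeR adjusted p = 0.207), and 2.14 (edgeR adjusted p = 0.00018), a rise, with KO + NM1 piece 01 left out. C7 had 0.139 to 0.60 CPM in the KO pieces and 8.43 to 26 CPM in the KO + NM1 pieces, and its log2 fold change was -5.20 (SE 0.61, edgeR adjusted p = 0.00154). Hc, the gene of C5, fell by 3.24 on the log2 scale (SE 0.86, edgeR adjusted p = 0.026), although KO + NM1 piece 01, at 0.547 CPM, lay within the KO range of 0.198 to 0.833 CPM.

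Of the genes of regulators that restrain the cascade, most of those tested fell. Of 4 soluble regulators tested 3 fell, and of 5 membrane regulators tested all 5 fell, beside 20.3% of all genes tested. White adipocyte and endothelial markers also all fell, and skeletal muscle markers all rose. The part of these cell types in the regulator levels was not tested. Serping1, the gene of the C1 inhibitor that removes C1r and C1s from C1q, had 87.0, 137 and 187 CPM in the KO pieces and 292, 309, 249 and 364 CPM in the KO + NM1 pieces. It fell by 1.15 on the log2 scale (SE 0.27, edgeR adjusted p = 0.0131), in the same direction as the genes of its 2 target proteases. Clu, the gene of clusterin, fell by 5.64 (SE 1.01, edgeR adjusted p = 0.0102), and KO + NM1 piece 01 held 2663 CPM of it against 231 to 346 CPM in pieces 02 to 04. Vtn, the gene of vitronectin, fell by 4.45 on the log2 scale (SE 0.41, edgeR adjusted p = 0.000774). Cd59a and Cd59b, whose products block the membrane attack complex on the cell surface, fell by 4.45 (SE 0.59, edgeR adjusted p = 0.00236) and by 3.75 (SE 0.65, edgeR adjusted p = 0.00511). As near copies of each other they may share reads. Cr1l, the gene of Crry, the main membrane inhibitor of C3 convertases in mice, was named after its values were seen. It had 36.4, 39.3 and 39.3 CPM in the KO pieces and 105, 98.7, 91.1 and 90.9 CPM in the KO + NM1 pieces, with a log2 fold change of -1.33 (SE 0.12, edgeR adjusted p = 0.000446).

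Of 8 receptor genes tested, 2 rose and none fell, beside 17.1% and 20.3% of all genes tested. C3ar1, the receptor gene for the C3a fragment, had 76.2, 76.6 and 103 CPM in the KO pieces and 3.21, 15.8, 9.59 and 13.7 CPM in the KO + NM1 pieces. It rose by 3.01 on the log2 scale (SE 0.48, edgeR adjusted p = 0.00277). Itgam, whose product is a chain of complement receptor 3 on myeloid cells, had 39.2 to 60.8 CPM in the KO pieces and 14.5 to 35.3 CPM in the KO + NM1 pieces, and its log2 fold change was 1.12 (SE 0.32, edgeR adjusted p = 0.0239). Without KO + NM1 piece 01, 4 receptor genes rose, beside 21.7% of all genes tested there. The further ones were Itgax and Itgb2, which were named after their values were seen.

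**Figure D4:**
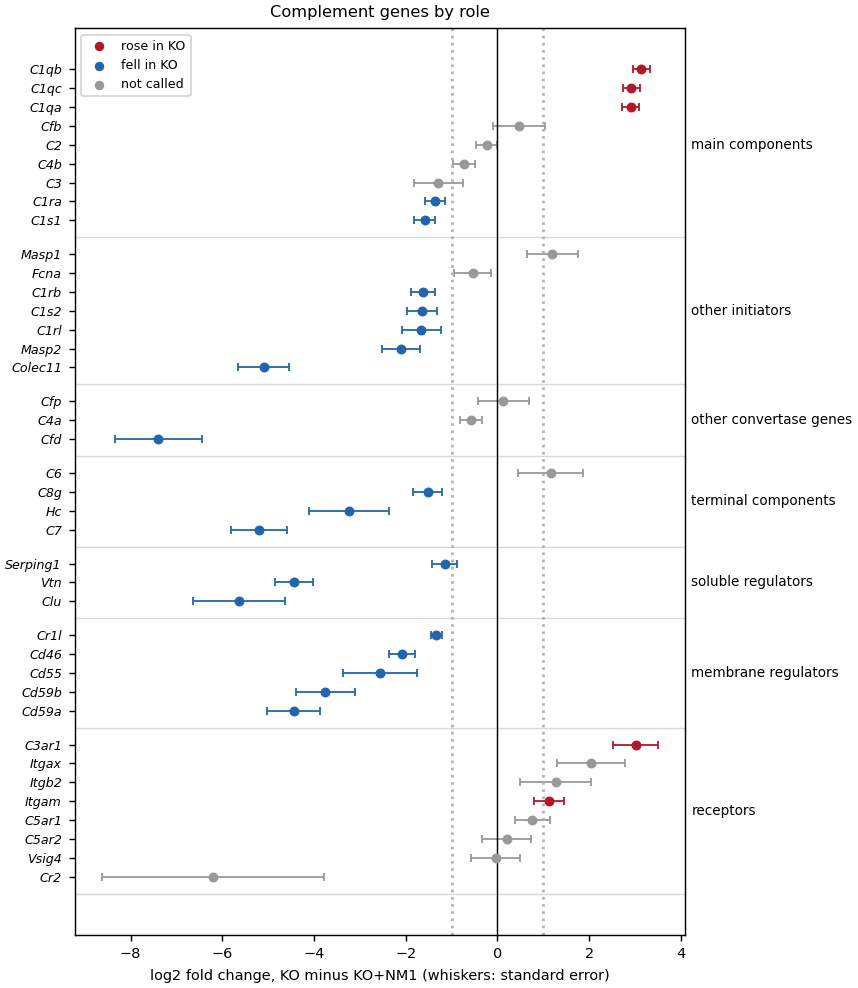
Log2 fold changes, KO minus KO + NM1 (horizontal axis), with standard errors, of the 9 main components and the further complement genes (rows) grouped by role, with 1 soluble regulator not shown. Red marks genes that rose, blue those that fell and gray those that were not called, and dotted lines mark a 2-fold change. The C1q genes, C3ar1 and Itgam are the rises, and all 5 membrane regulators are falls.

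Markers of other cell types were counted in the same way. Among all genes tested 17.1% rose and 20.3% fell, or 21.7% and 25.1% with KO + NM1 piece 01 left out. Of 10 fibroblast markers 6 fell and none rose, with summed levels of 5743 to 9989 CPM in the KO pieces and 2390 to 11791 CPM in the KO + NM1 pieces. Col1a1, a collagen gene and with Col3a1 the most abundant of them, had 3441 to 5827 CPM in the KO pieces and 589 to 2331 CPM in the KO + NM1 pieces. The log2 fold change of Col1a1 was 1.42 (SE 0.51, edgeR adjusted p = 0.0514), and 1.02 (edgeR adjusted p = 0.0204), a rise, with KO + NM1 piece 01 left out. In that setting 7 fibroblast markers fell. All 8 endothelial markers fell, all 10 skeletal muscle markers rose and none of 8 B and plasma cell markers was called. The log2 fold changes of the B and plasma cell markers were -6.03 to -3.20 with all pieces and turned to 0.72 to 3.73 with KO + NM1 piece 01 left out, where 3 of 7 tested rose. Of 8 dendritic cell markers 2 fell and none rose, and of 4 neutrophil markers tested 1 rose and none fell. The log2 fold changes of the 4 neutrophil markers ran from -4.87 to 2.08, with a median of -2.40. With KO + NM1 piece 01 left out, 5 dendritic cell markers rose and 2 fell, and 1 neutrophil marker rose. Of 8 hepatocyte markers only Alb, Fgb and Cyp2e1 had enough counts to be tested, and all 3 fell. Alb, the defining marker, reached at most 18 CPM in any piece.

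Of 12282 other genes with a mean of at least 5 CPM, those whose profile over the 7 pieces was closest to that of C1qa were C1qc, C1qb, Ccr2, Slc25a13 and Gbp7. The measure was the root mean square difference of log2 CPM after centering each gene, and it was 0.0815 for C1qc, 0.130 for C1qb and 0.156 to 0.165 for the other three. Ccr2, the receptor gene for the monocyte chemokine CCL2, had 146 CPM on average in the KO pieces and 19.4 CPM in the KO + NM1 pieces. The profiles closest to that of C1s1 were those of Zfp521, C1ra, C1rb, Gm8797 and Dact3, at 0.103 to 0.149. C1ra was thus the second closest of all genes to its neighbor C1s1, at 0.123, and C1rb the third, at 0.128. The profiles closest to that of C3 were those of Ccdc88c, Rftn1, 2310015A10Rik, Gm20559 and Filip1l, at 0.163 to 0.238, and the nearest of the other 8 complement genes was C4b at rank 853. From C1qa, C1ra and C1s1 ranked 10195 and 10494 of these genes. The measure holds the difference between the groups, so genes that moved in opposite directions lie far apart by it.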

How the data were processed

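RNA of the tumor pieces was sequenced as paired reads. The authors trimmed reads with Trimmomatic 0.36, aligned pairs to GRCm38 with HISAT2 2.0.4, sorted them with SAMtools 0.1.19 and deposited raw read counts per Ensembl gene from HTSeq-count. The annotation release, the strand option and the overlap setting are not given in the sources used here. No summary entries stand in the files.

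Symbols from GENCODE M21 matched 46091 of 46603 genes. The filter filterByExpr (minimum count 10) of edgeR 4.0.16, run in R 4.3.3, was applied first. Counts were scaled by TMM and compared, KO minus KO + NM1, by the quasi-likelihood test, with Benjamini-Hochberg adjustment over all 16887 genes kept. Log2 CPM used a prior count of 2. CPM per kilobase used the union of exons. The count of 0 allows up to 3 counts, 0.0991 to 0.148 CPM per piece, for counting error only. Depth was 24088309 to 28326568 counts per piece. Pairs of pieces of a group differed with a chi-square per degree of freedom of 35.2 to 687, so none was a repeat. The steps were tested on simulated counts.

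The members and lists were chosen with earlier results of these data known. Named genes were the 9 components, the 2 largest rises and falls called in each role list with a mean of at least 1 CPM, Serping1, Cfd, C3ar1, Itgam, genes that can share reads with members, the 2 most abundant of each marker list, the 5 closest profiles and Myo1c. Of the marker genes under this rule some are given only through their list. Alternatives were other scalings and filters, DESeq2 1.42.0, limma 3.58.1 (voom with quality weights), glmTreat, the piece number as a block, each library left out, the adjusted p alone and counts summed with paralogs. Protein sequences were not used here, and a few results are not reported here.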

Additional observations from a re-analysis of the deposited data

Results flagged for a closer look

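Of 40 complement genes tested for an outermost piece among the 4 KO + NM1 pieces, by the gap to the nearest piece over the whole range of log2 CPM (Dixon's ratio), 5 passed the critical value for 4 samples. Chance gives about 1 in 20, or 2 of 40, and the genes are not independent. In 4 of the 5 the outermost piece was piece 01. It was the highest for Cfb, with a ratio of 0.841, for Clu, with 0.835, and for Cd55, the gene of a membrane inhibitor of C3 convertases, with 0.934. It was the lowest for Cfd, with a ratio of 0.845. For C7 the outermost was piece 04, the highest, with a ratio of 0.9. C3, also highest in piece 01, had 0.733 and did not pass.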

How the results depend on the processing

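The directions of the 9 log2 fold changes were kept in all 16 or 17 alternatives of each gene. The calls of C1qa, C1qb, C1qc, C1ra and C1s1 were kept in these, with adjusted p-values of at most 0.0276. C3 passed both thresholds with the Wald test of DESeq2, at -1.37, and its adjusted p was 0.0226 to 0.241 over its alternatives. Cfb passed with limma's voom and quality weights, at 1.24, and ranged from 0.045 to 1.06 with a library left out, with adjusted p from 0.00478 to 0.965 over its alternatives. C4b ranged from -1.13 to -0.66 with a library left out, and its adjusted p was 0.0048 to 0.134. Against a 2-fold change with glmTreat, 1 of the 9 genes was lower, C1s1, and the call on C1ra was lost (adjusted p = 0.0907). Of all genes tested 1707 were then higher and 2074 lower, against 2882 and 3424 by the study thresholds. By the adjusted p alone 4345 genes of all were higher. Among the 31 further complement genes 1 rose with upper-quartile scaling, 6 with voom and 1 to 5 with a library left out, against 2. Leaving out KO piece 01, 02 or 03 or KO + NM1 piece 02 or 03 gave 1, and leaving out KO + NM1 piece 01 gave 5. Of all genes, 2461 rose with upper-quartile scaling and 4096 with voom, against 2882. With a library left out 2174 to 3603 of all genes rose, the most without KO + NM1 piece 01. The causes of these differences were not tested. Upper-quartile scaling moved the median of all log2 fold changes by -0.158 and the size factors of DESeq2 by -0.1. The piece numbers pair no animals or batches in the labels. Deviations from the group means correlated at 0.0818, 0.106 and -0.0292 for numbers 1, 2 and 3, and 1 of 3 KO pieces correlated best with its own number. With the piece number as a block, 11 of the further genes fell instead of 17, and the calls on the 9 genes did not change. In that setting 2493 of all genes tested fell instead of 3424. For C1ra, CPM without TMM gave a difference of -1.18 in mean log2 CPM (exact permutation test, p = 0.0571).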

Other observations

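The ratios given here were chosen after the values were seen. Per kilobase of exon, C1s1 stood to Serping1, the gene of its inhibitor, at 0.399, 0.403, 0.404 and 0.404 in KO + NM1 pieces 01 to 04, a spread of 0.00904 (SD, n = 4) on the log2 scale. In KO pieces 01 to 03 the ratio was 0.333, 0.307 and 0.273, lower in each piece. Both genes varied more than their ratio did among the KO + NM1 pieces, where C1s1 spanned 135 to 198 CPM.

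C1qa did not keep 1 ratio to the macrophage markers. To Adgre1, the gene of the F4/80 antigen of macrophages, it stood at 13.1 to 14.8 in the KO pieces, at 10.7 to 12.5 in KO + NM1 pieces 02 to 04 and at 24.4 in piece 01. To Fcgr1, a receptor gene for IgG that interferon gamma is known to raise, it stood at 27.8 to 30.5 in the KO pieces and 65.0 to 74.5 in the KO + NM1 pieces, the reverse of its ratio to Csf1r. To Cd68 it stood at 8.73 to 9.42 and 2.74 to 4.41.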
